A study of Mus musculus with 18 samples.

Results

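The genes described here are the matrix metalloproteases (Mmp genes, without the enamel protease Mmp20), the Adam and Adamts metalloproteases with the Adamts-like (Adamtsl) genes, the tissue inhibitors of metalloproteases (Timp genes) and the cathepsins. They were chosen by gene symbol and not by any measured value. The symbols of 85 genes matched, of 33665 symbols in the deposited tables: 20 Mmp, 22 Adam, 19 Adamts, 5 Adamtsl, 4 Timp and 15 cathepsin genes. RNA sequencing compared the molar dental epithelium of wild-type mice (WT) with that of mice that lack both nucleosome-binding proteins HMGN1 and HMGN2 (DKO, genotype Hmgn1-/-; Hmgn2-/-). Tissue was taken at embryonic day 17 (E17), postnatal day 0 (P0) and postnatal day 5 (P5), with 3 libraries in each of the 6 groups. In every group, tooth germs had been treated with 1 U/ml of dispase, a protease that frees an epithelium from the mesenchyme under it, and ribosomal RNA had been depleted. The labels name no strain, no pooling of animals and no tissue-specific driver of the deletions, and they do not tie libraries to animals. The p-values therefore measure only the spread between libraries, which could be technical.

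Matrix metalloproteases and Adamts proteases are zinc enzymes that cut collagens, proteoglycans and other proteins outside the cell, and Adam proteases sit in the membrane, where several of them release growth factors and receptors. TIMPs block the active site of these enzymes. Cathepsins mostly digest proteins in lysosomes, and cathepsin K (Ctsk) is released by osteoclasts, the cells that resorb bone, to break down bone collagen. In a growing tooth germ such enzymes take part in remodelling the basement membrane, the matrix of the dental mesenchyme and the bone around the germ.

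Values are RPKM (reads scaled to transcript length and library depth) summed over the transcripts of a gene, with n = 3 per group throughout. Fold changes are DKO against WT on the log2(RPKM + 1) scale, which understates changes of low genes, and are given with their standard error and with limma's adjusted p (Benjamini-Hochberg over all genes tested of a stage). A gene was tested where 3 or more of the 6 libraries at that stage reached 1 RPKM. It is said to have risen or fallen where the adjusted p was under 0.05 in the same direction as deposited and when libraries were scaled to a common upper quartile, and "scaled" marks the second value. Both were required because most genes shifted together: over all genes tested, the median log2 fold change at E17 was 0.25 (-0.00 scaled), at P0 it was -0.05 (-0.04 scaled) and at P5 -0.25 (-0.06 scaled). At E17 a single entry, CT010467.1, made up 8.6%, 9.3% and 8.8% of the summed RPKM in WT and 6.1% in DKO replicate 1. In DKO replicates 2 and 3 the largest entry was mt-Co1, at 1.8% and 1.9%. The part of CT010467.1 in the E17 shift was not tested. The number of alignments per library ranged from 65953495 to 99967427 for E17, from 74845352 to 108920337 for P0 and from 39209676 to 72660832 for P5. The P0 table covers chromosomes 1 and 10 and part of 11, so that 11 of the 85 genes could be read at P0, against 84 at E17 and 81 at P5. Hmgn2 stood at 320.0 to 354 RPKM in WT and at 0.839 to 0.975 in DKO at E17, and at 166 to 183 and 5.44 to 10.4 at P5. Hmgn1 stood at 123 to 133 against 86.2 to 92.9 at E17 and at 179 to 189.6 against 69.8 to 72.6 at P5. The groups did not overlap for either gene, but Hmgn1 reads remained in every DKO library, and since the deleted part was not examined here, the level of Hmgn1 does not check the label.

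The labelled epithelium was checked against its markers. The basal keratin gene Krt14 stood at 505 to 581 RPKM in WT and 569 to 601 in DKO at E17, and at 1522 to 1760 against 1481 to 1549 at P5. Epcam, an epithelial adhesion gene, stood at 40.8 to 44.9 RPKM in WT and 68.8 to 78.1 in DKO at E17, and at 24.8 to 33.4 against 19.1 to 21.7 at P5. Both genes were thus present in every library of these stages. Amelx, the main enamel matrix gene, alone made up 21.7% to 24.2% of the summed RPKM in WT and 33.8% to 38.8% in DKO at P5. Markers of mesenchyme, osteoclasts, macrophages, cartilage and muscle were also read at E17, and none of them was listed at 0 in every library. The osteoclast marker Calcr and the cartilage markers Acan, Col9a1, Matn1 and Cnmd were below the filter there. In such bulk samples, fewer cells of a type and less RNA per cell cannot be told apart. The values of these markers are given beside the proteases they moved with, and their part in those results was not tested.

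At all 3 stages the called members came from several families, but unevenly. Of 16 tested Adamts genes, 2 rose and 4 fell at E17, where 6.61% of all genes tested rose and 3.07% fell. Of 7 tested Mmp genes, 4 fell at P5, and of 11 tested cathepsins 0 fell, where 30.8% of all genes tested fell. At E17, Ctsk, Adamts17 and Adamts19 rose, and Adam33, Adamts8, Adamts10, Adamts12, Adamts14, Adamtsl3 and Mmp16 fell. At P0, the procollagen-cutting enzymes Adamts2 and Adamts14 rose with Adam19, Adam23 and Adamtsl5, while Mmp11, Mmp28, Adamts4 and Timp3 fell. At P5, Timp1, Timp3, Mmp2, Mmp11, Mmp13, Mmp23, Adam19, Adamts4, Adamts10 and Adamts14 fell, and Ctsl and Adamtsl1 rose.

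At E17, 56 of the 84 genes were tested, of which 3 rose and 7 fell, where 6.61% of all genes tested rose and 3.07% fell. Values as deposited alone gave 17 higher and 7 lower members (backgrounds 56.3% and 3.3%), and the scaled values alone gave 3 and 15 (6.61% and 8.03%). The median log2 fold change of the tested members was 0.08, and -0.16 scaled, beside 0.25 and -0.00 over all genes. At P0, 5 of the 10 tested members rose and 4 fell, where 16.7% of all genes tested rose and 22.8% fell, and the members' median was 0.16, 0.18 scaled. Either scaling alone gave the same counts of members at P0, with backgrounds of 16.7% and 23.2% as deposited and 21.5% and 25.8% scaled. At P5, 2 of 37 tested members rose and 10 fell, and the share that fell, 27.0%, was near the background of 30.8% (7.35% of all genes rose). The as-deposited values alone gave 2 higher and 25 lower at P5 (backgrounds 7.36% and 58.2%), and the scaled values alone 6 and 10 (19.4% and 30.8%). The members' median at P5 was -0.26, -0.06 scaled, beside -0.25 and -0.06 over all genes. Adamts19 at E17 reached the filter only through DKO, and Adamts8 and Adamtsl3 at E17 and Adamts4 and Adamts14 at P5 only through WT, so these 5 could be tested only because they differed, and the counts say nothing of the genes below the filter.

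**Figure D1:**
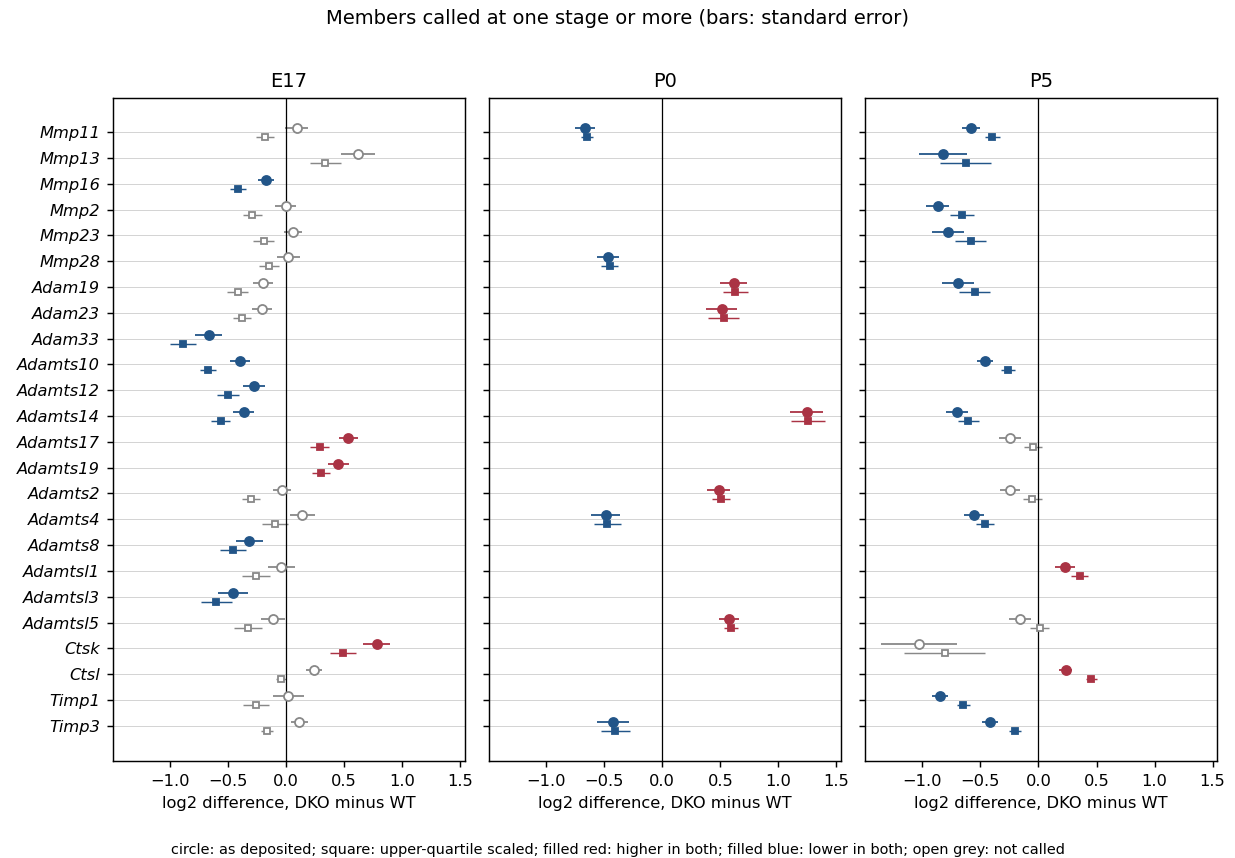
Log2 fold change (DKO minus WT, log2(RPKM + 1)) of each member that rose or fell at any of the stages, at E17, P0 and P5, with standard errors; circles are values as deposited, squares are upper-quartile scaled values, and filled red or blue symbols mark genes that rose or fell in both. Adamts14 lies left of zero at E17 and P5 and right of zero at P0, and rows without a symbol were not tested or not analysed at that stage.

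By level, cathepsins and a few metalloproteases led the set. In WT at E17 the highest mean levels were those of Ctsk (172 ± 31.0 RPKM, SD), Ctsd (157 ± 15.5), Ctsb (118 ± 7.31), Mmp14 (94.3 ± 11.6) and Mmp9 (78.8 ± 18.4). Ctsk and Ctsd did not differ beyond their spread there, since Ctsk ranged from 152 to 207.99 RPKM and Ctsd from 146 to 174.7. In DKO at E17 every Ctsk library (289 to 298) was above every Ctsd library (174 to 201.2). In WT at P5 the order began with Ctsd (163 ± 14.7), Mmp14 (102.9, range 95.8 to 114.3), Ctsb (96.9 ± 3.93), Ctsz (68.4 ± 4.41) and Ctsk (61.2 ± 11.1), and Mmp14 and Ctsb overlapped. At the other end lay genes below the filter at both E17 and P5, such as Adam2, Adam3, Adam7, Adam21, Adam30 and Adam32, known mostly from testis, Mmp7, Mmp12, Mmp21, Mmp25 and Mmp27, and the leukocyte proteases Ctsg and Ctsw. The highest of their levels in any library was 0.683 RPKM, for Ctsw at E17. Mmp7, a protease of glandular epithelia, was listed at 0 in every WT library at P5 and stood at 0.1203, 0.0617 and 0.101 RPKM in DKO, too low to be tested.

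Of the 3 enzymes known from osteoclasts and bone resorption, Ctsk, Mmp9 and Mmp13, only Ctsk was called at E17. Ctsk (chromosome 3, 95499256 to 95509362, mm10) stood at 156.5, 207.99 and 152 RPKM in WT and at 295, 289 and 298 in DKO. The groups did not overlap, and the DKO libraries lay much closer together than the WT libraries, of which the second was the highest. Ctsk rose (log2 fold change 0.78 ± 0.12, adjusted p = 0.00172; scaled 0.49, adjusted p = 0.0279). The scaled value lost its call without WT replicate 1 or 3 or without any of the DKO replicates, with an adjusted p of 0.053 to 0.1085, while its as-deposited fold change stayed at 0.70 to 0.79 in those fits.

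Mmp9, gelatinase B (chromosome 2, 164940780 to 164955850), stood at 65.3, 99.8 and 71.4 RPKM in WT and at 104.6, 122.9 and 111.7 in DKO at E17. All DKO libraries were above all WT libraries, and WT replicate 2 was again the highest of its group. Its log2 fold change was 0.54 ± 0.14 (adjusted p = 0.0124; scaled 0.25, adjusted p = 0.267), so it was not called, though it passed in both scalings without WT replicate 2 (0.72, scaled adjusted p = 0.0138). Mmp13, the collagenase of bone and cartilage (chromosome 9, 7272514 to 7283331), stood at 21.1, 26.9 and 20.8 RPKM against 29.7, 44.5 and 33.8. The groups again did not overlap, and its value was 0.62 ± 0.15 (adjusted p = 0.0077; scaled 0.34, adjusted p = 0.13), not called, although with the replicate number as a block it passed (scaled adjusted p = 0.0117).

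Of 9 osteoclast markers, a list that holds Ctsk and Mmp9 themselves, 8 were tested at E17 and 3 rose, where 6.61% of all genes tested rose. The 3 were Ctsk, the phosphatase Acp5 (0.73, scaled 0.45) and the receptor Oscar (0.67, scaled 0.48). The other tested markers, Ocstamp, Dcstamp, Atp6v0d2, Nfatc1 and Mmp9, had log2 fold changes from 0.18 to 0.60 and were not called. The summed level of the list was 314 to 429 RPKM in WT and 559 to 578 in DKO, and Calcr was below the filter. Ctsk and Mmp9 made up most of this sum, so it is not separate from their own values. None of 9 tested macrophage markers was called at E17, with a median of 0.32 as deposited and 0.05 scaled.

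At P5 the same enzymes were lower in DKO on average, with a wide spread. Ctsk stood at 71.7, 49.7 and 62.2 RPKM in WT and at 32.8, 14.7 and 50.8 in DKO. DKO replicate 3 reached the WT range and DKO replicate 2 was far below it. The log2 fold change was -1.03 ± 0.33 (adjusted p = 0.0176; scaled -0.81, adjusted p = 0.0836), which was not called, and without DKO replicate 3 Ctsk passed in both scalings (-1.42, scaled adjusted p = 0.0116). It also passed with the replicate number as a block (scaled adjusted p = 0.0195).

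Mmp9 at P5 stood at 24.2, 13.3 and 18.6 RPKM against 10.8, 5.15 and 16.7, with the same order of the DKO libraries and with overlap. Its value was -0.82 ± 0.31 (adjusted p = 0.0396; scaled -0.61, adjusted p = 0.157), and it passed without DKO replicate 3 (-1.17, scaled adjusted p = 0.0278) or with the block (scaled adjusted p = 0.0272). Mmp13 stood at 10.5, 8.74 and 9.18 RPKM against 5.12, 2.98 and 7.46. Here no DKO library reached the WT range, and Mmp13 fell (-0.82 ± 0.21, adjusted p = 0.0055; scaled -0.63, adjusted p = 0.0404). The call was lost without any of the WT replicates or without DKO replicate 1 or 2, with a scaled adjusted p of 0.0574 to 0.0939.

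Acp5, whose order of DKO libraries at P5 was the same (24.9, 12.9 and 46.1 RPKM against 57.9, 34.7 and 50.7 in WT), was not called (-0.89, scaled adjusted p = 0.156). The osteoclast list, of which Ctsk and Mmp9 again made up most, summed to 159, 101 and 136 RPKM in WT and to 70.7, 34.5 and 117 in DKO. Of its 5 tested members only Nfatc1, the transcription factor of osteoclast formation, fell (-0.50, scaled -0.38), where 30.8% of all genes tested fell. The genotype effect on Ctsk differed between E17 and P5 by -1.81 ± 0.35 (adjusted p = 0.000333; scaled -1.30, adjusted p = 0.0152), and that on Mmp13 by -1.44 ± 0.25 (adjusted p = 6.14e-05; scaled -0.96, adjusted p = 0.00761). For Mmp9 the difference, -1.36 ± 0.35, did not pass after scaling (adjusted p = 0.0736).

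**Figure D2:**
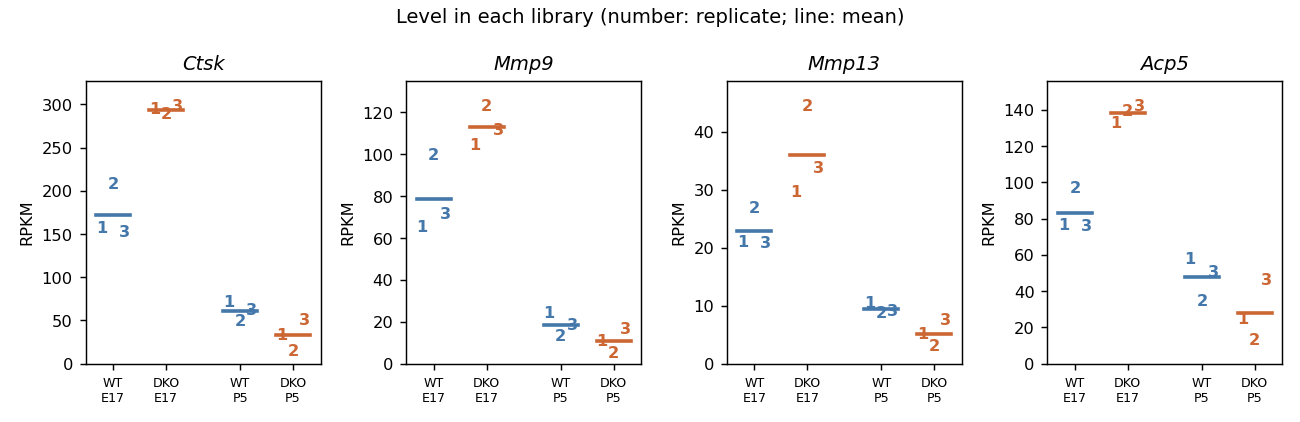
RPKM of Ctsk, Mmp9, Mmp13 and the osteoclast marker Acp5 in each library at E17 and P5; each digit is a library, by its replicate number, and lines are group means. At E17 every DKO library lies above every WT library, and at P5 DKO replicate 3 is the highest and replicate 2 the lowest DKO library in all 4 panels; E17 and P5 come from separately annotated tables and are compared only within a stage.

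The regions upstream of Mmp13 and Ctsk were taken from RefSeq (GRCm38.p6) as the 250 bases before the gene start. The genotype effect on these 2 genes differed between E17 and P5, as did that on Mmp2, Timp1, Adamts4 and Adamts17. The pair is shown because its sequences are unlike, so the contrast between them was chosen and is not a result. The regions were searched on both strands for the AP-1 motif TGANTCA and the RUNX motif TGTGGT. The 53 members with an entry had 59 such windows. The AP-1 motif was in 6.75% of all 32851 windows and in 6 of the 59 (Adam19, Mmp3, Mmp7, Mmp10, Mmp12 and Mmp13), and the RUNX motif was in 14.0% of all windows and in 10 of the 59. Capitals mark matches. In Mmp13 an AP-1 match lies 35 to 29 bases and a RUNX match, on the other strand, 118 to 113 bases upstream, and the window of Ctsk holds neither set of letters.
Mmp13, chr9:7272264-7272513, plus strand: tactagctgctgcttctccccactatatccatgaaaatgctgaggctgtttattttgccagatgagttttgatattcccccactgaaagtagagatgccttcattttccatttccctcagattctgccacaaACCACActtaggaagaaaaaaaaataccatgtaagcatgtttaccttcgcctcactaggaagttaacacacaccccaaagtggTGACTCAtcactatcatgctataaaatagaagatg
Ctsk, chr3:95498960-95499209, plus strand: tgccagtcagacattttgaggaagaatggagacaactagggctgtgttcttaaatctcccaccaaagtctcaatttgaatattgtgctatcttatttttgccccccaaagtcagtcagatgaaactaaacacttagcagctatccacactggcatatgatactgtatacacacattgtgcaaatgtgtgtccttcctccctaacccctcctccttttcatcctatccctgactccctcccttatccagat

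Among the other matrix metalloproteases, Mmp14 and Mmp2 were abundant at E17 and were not called there. Mmp2, gelatinase A (chromosome 8, 92827291 to 92853420), stood at 64.3, 80.4 and 67.0 RPKM in WT and at 67.6, 71.8 and 70.8 in DKO at E17, with full overlap (-0.00 ± 0.09, adjusted p = 0.975; scaled -0.29, adjusted p = 0.052). The P5 libraries held 17.5, 20.1 and 17.2 RPKM in WT and 11.03, 8.08 and 9.65 in DKO. The groups lay well apart, and Mmp2 fell (-0.87 ± 0.10, adjusted p = 5.69e-05; scaled -0.66, adjusted p = 0.00102). Its genotype effect differed between the stages (-0.87 ± 0.14, adjusted p = 1.38e-05; scaled -0.37, adjusted p = 0.0326).

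Mmp14, the membrane-anchored protease that activates MMP2 on the cell surface with the help of TIMP2 (chromosome 14, 54431612 to 54445364), stood at 83.7, 106.7 and 92.4 RPKM in WT against 97.6, 111.3 and 106.3 in DKO at E17, where the groups overlapped (0.16 ± 0.10, adjusted p = 0.178; scaled -0.13). Its P5 levels were 114.3, 98.4 and 95.8 RPKM in WT and 90.4, 88.8 and 82.2 in DKO, with no overlap. The P5 value of -0.23 ± 0.07 (adjusted p = 0.0155) was the same size as the shift of all genes, and after scaling it was -0.01 (adjusted p = 0.886).

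Mmp11, stromelysin 3 (chromosome 10, 75923222 to 75936496), could be read at all stages. It overlapped between genotypes at E17 (14.0 to 17.2 RPKM in WT, 14.9 to 18.2 in DKO; 0.09, adjusted p = 0.43; scaled -0.18). At P0 it stood at 10.1, 9.06 and 10.4 RPKM against 5.78, 6.004 and 5.71, and it fell (-0.67 ± 0.08, adjusted p = 6.95e-05; scaled -0.65). By P5 its levels were 6.30, 6.37 and 5.34 RPKM in WT and 3.73, 3.53 and 3.75 in DKO, and it fell again (-0.58 ± 0.08, adjusted p = 0.000144; scaled -0.40). No DKO library reached a WT library at P0 or P5. The effect at P0 differed from that at E17 (-0.76 ± 0.13, adjusted p = 6.56e-05; scaled -0.46). An exon of Mmp11 overlaps Chchd10 on the opposite strand, and since the counting of strand is not given in the sources used here, reads of the 2 genes may not be separated.

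Mmp23, a membrane protease of reproductive and other tissues (chromosome 4, 155650655 to 155653384), fell at P5 from 10.4, 7.45 and 7.69 RPKM in WT to 3.81, 4.19 and 5.69 in DKO (-0.78 ± 0.14, adjusted p = 0.000699; scaled -0.58), without overlap. Mmp28, epilysin, a protease known from keratinocytes (chromosome 11, 83440768 to 83463071), fell at P0 from 1.73, 1.76 and 1.92 RPKM in WT to 0.98, 1.052 and 1.07 in DKO (-0.46 ± 0.09, adjusted p = 0.00219; scaled -0.45), also without overlap; an exon of it is overlapped by 1700020L24Rik on the other strand. At E17 Mmp28 overlapped between genotypes (0.02, adjusted p = 0.864; scaled -0.15). Mmp16, a membrane-anchored metalloprotease (chromosome 4, 17852893 to 18119145), fell a little at E17, from 4.995, 5.11 and 5.31 RPKM in WT to 4.55, 4.21 and 4.55 in DKO (-0.17 ± 0.07, adjusted p = 0.0472; scaled -0.41). That call was lost with any library but DKO replicate 1 left out (adjusted p 0.069 to 0.152) and with the replicate number as a block (adjusted p = 0.0584).

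Of the 4 inhibitors, Timp1 and Timp3 fell at P5, Timp2 was not called and Timp4 was too low to be tested. Timp1 (chromosome X, 20870166 to 20874735, within the span of Syn1 on the other strand but outside its exons) stood at 18.7, 16.2 and 18.4 RPKM in WT and at 14.5, 22.2 and 17.96 in DKO at E17, where the DKO libraries bracketed the WT libraries (0.02 ± 0.13, adjusted p = 0.912; scaled -0.26, adjusted p = 0.167). The P5 libraries held 12.8, 11.2 and 12.0 RPKM in WT and 6.48, 6.02 and 6.11 in DKO. The groups were tight and far apart, and Timp1 fell by 0.85 ± 0.07 on the log2 scale (adjusted p = 1.02e-05; scaled -0.65, adjusted p = 5.44e-05). The effect differed between E17 and P5 (-0.87 ± 0.15, adjusted p = 0.000128; scaled -0.39, adjusted p = 0.0271). Its upstream window, shown as that of the inhibitor with the clearest change, held neither of the motifs named above.
Timp1, chrX:20869916-20870165, plus strand: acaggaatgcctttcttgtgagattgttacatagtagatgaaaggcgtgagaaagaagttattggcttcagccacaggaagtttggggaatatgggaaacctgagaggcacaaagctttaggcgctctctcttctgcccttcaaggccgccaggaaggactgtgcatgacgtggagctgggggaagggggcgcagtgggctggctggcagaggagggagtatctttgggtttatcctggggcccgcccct

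Timp3, the inhibitor that binds to the matrix (chromosome 10, 86300372 to 86349506), stood at 20.1, 22.4 and 20.6 RPKM in WT against 21.4, 23.4 and 23.8 in DKO at E17 and was not called (0.12, adjusted p = 0.178; scaled -0.16). At P0 it stood at 29.5, 18.7 and 28.4 RPKM in WT and at 19.2, 18.2 and 17.8 in DKO. WT replicate 2 lay among the DKO libraries. Timp3 passed as lower at P0 (-0.43 ± 0.14, adjusted p = 0.0257; scaled -0.40, adjusted p = 0.0292), but not without WT replicate 1 (-0.31, adjusted p = 0.0868), WT replicate 3 (-0.34, adjusted p = 0.109), DKO replicate 1 (scaled adjusted p = 0.0595) or DKO replicate 3 (-0.40, adjusted p = 0.0548).

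At P5 Timp3 fell from 18.7, 16.5 and 16.2 RPKM in WT to 13.2, 12.2 and 12.4 in DKO (-0.42 ± 0.07, adjusted p = 0.00052; scaled -0.20, adjusted p = 0.0115), and the groups were apart. Exons of Timp3 overlap those of Syn3 on the opposite strand. Timp2, the inhibitor that also takes part in MMP2 activation (chromosome 11, 118301069 to 118355740), stood at 57.0 to 64.1 RPKM in WT and 62.5 to 63.9 in DKO at E17 (0.08, adjusted p = 0.319; scaled -0.20). Its P5 levels were 39.0, 37.6 and 35.1 RPKM in WT and 34.5, 28.5 and 29.7 in DKO, apart but with a fold change of the size of the general shift (-0.27 ± 0.08, adjusted p = 0.0104; scaled -0.05, adjusted p = 0.592). Timp4 (chromosome 6, 115241892 to 115252205, with exons that overlap Syn2) stood at 1.23 to 2.28 RPKM in WT and 1.52 to 2.34 in DKO at E17 (0.11, adjusted p = 0.547; scaled -0.07) and below 0.15 RPKM at P5.

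**Figure D3:**
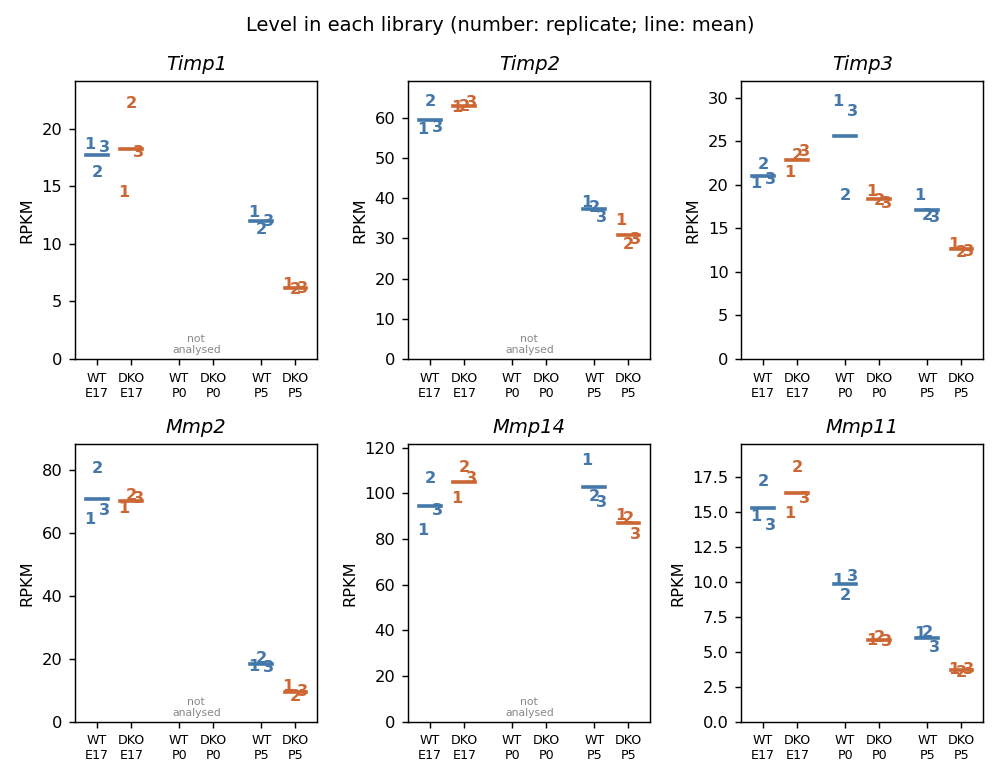
RPKM of 3 inhibitors (Timp1, Timp2, Timp3) and 3 metalloproteases (Mmp2, Mmp14, Mmp11) in each library; digits are replicate numbers, lines are group means, and genes outside the part of the genome covered by the P0 table are marked as not analysed. At P5 all DKO libraries lie below all WT libraries in each of the 6 panels, while at E17 the groups overlap; levels are compared only within a stage.

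The 3 enzymes that remove the amino-terminal propeptide of fibrillar procollagens, Adamts2, Adamts3 and Adamts14, differed in what they did. Adamts14 (chromosome 10, 61197112 to 61273438) stood at 2.45, 2.86 and 2.78 RPKM in WT and at 1.62, 1.95 and 2.06 in DKO at E17, and it fell (-0.36 ± 0.09, adjusted p = 0.00898; scaled -0.56, adjusted p = 0.00474). At P0 it stood at 1.25, 1.01 and 1.15 RPKM against 2.99, 5.03 and 4.38, and it rose (1.24 ± 0.14, adjusted p = 2.97e-05; scaled 1.26, adjusted p = 0.000246). By P5 its levels were 1.51, 1.10 and 1.38 RPKM in WT and 0.493, 0.461 and 0.338 in DKO, and it fell (-0.70 ± 0.10, adjusted p = 0.000139; scaled -0.60, adjusted p = 0.00079). The groups did not overlap at any stage, and only at P0 was DKO the higher group.

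The genotype effect on Adamts14 differed between E17 and P0 by 1.61 ± 0.17 (adjusted p = 2.62e-07) and between P0 and P5 by -1.95 ± 0.17 (adjusted p = 9.62e-09), also after scaling (1.82 and -1.86). Its upstream window, shown because the gene was called at every stage with changing direction, is rich in G and C and held neither motif.
Adamts14, chr10:61273420-61273669, minus strand: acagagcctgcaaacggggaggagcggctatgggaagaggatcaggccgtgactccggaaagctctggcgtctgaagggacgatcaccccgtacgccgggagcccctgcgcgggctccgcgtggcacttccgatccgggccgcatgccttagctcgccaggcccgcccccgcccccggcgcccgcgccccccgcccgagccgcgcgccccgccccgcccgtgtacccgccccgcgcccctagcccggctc

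Adamts2 (chromosome 11, 50602084 to 50807573) stood at 9.81, 12.1 and 10.8 RPKM in WT against 10.3, 10.8 and 10.7 in DKO at E17, with overlap (-0.03, adjusted p = 0.714; scaled -0.30, adjusted p = 0.0393). At P0 it rose from 8.95, 7.19 and 9.31 RPKM in WT to 11.1, 12.7 and 12.8 in DKO (0.48 ± 0.10, adjusted p = 0.00249; scaled 0.50), and the groups were apart. The P5 libraries held 7.11, 6.63 and 6.85 RPKM in WT and 6.52, 5.19 and 5.24 in DKO (-0.25 ± 0.09, adjusted p = 0.0264; scaled -0.05, adjusted p = 0.614). Its effect at P0 differed from that at E17 (0.52 ± 0.13, adjusted p = 0.002; scaled 0.81) and from that at P5 (P5 minus P0 -0.73 ± 0.13, adjusted p = 9.07e-05; scaled -0.56). Adamts3, described after its values were seen, stood at 1.33, 1.87 and 1.56 against 2.17, 2.52 and 2.63 RPKM at E17, the opposite order to Adamts14, but did not pass after scaling (0.42 ± 0.10, adjusted p = 0.00834; scaled 0.22, adjusted p = 0.156).

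The fibrillar collagen gene Col1a1, whose product is a substrate of these enzymes, took the same course as Adamts14, with log2 fold changes of -1.15 at E17, 2.12 at P0 and -1.18 at P5. The summed level of 10 mesenchyme markers was 4082 to 4467 RPKM in WT and 2391 to 2560 in DKO at E17, and 1826 to 2013 against 770 to 1119 at P5. Col1a1 and Col1a2 made up most of these sums. At E17, 4 of 10 tested fell (background 3.07%), and at P5 5 of 10 fell (background 30.8%), while none rose at either. The markers not called at E17, Col3a1, Lum, Pdgfra, Pdgfrb, Twist1 and Dcn, had log2 fold changes from -0.11 to 0.24 (scaled -0.39 to -0.05). At P0 the 5 markers in the table summed to 715 to 851 RPKM in WT and 2153 to 3015 in DKO. There Col1a1 and Dcn rose while Col3a1 and Prrx1 fell (-1.09 and -0.96), so the mesenchyme markers did not move one way at P0. The part of these differences in the values of Adamts2 and Adamts14 was not tested.

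**Figure D4:**
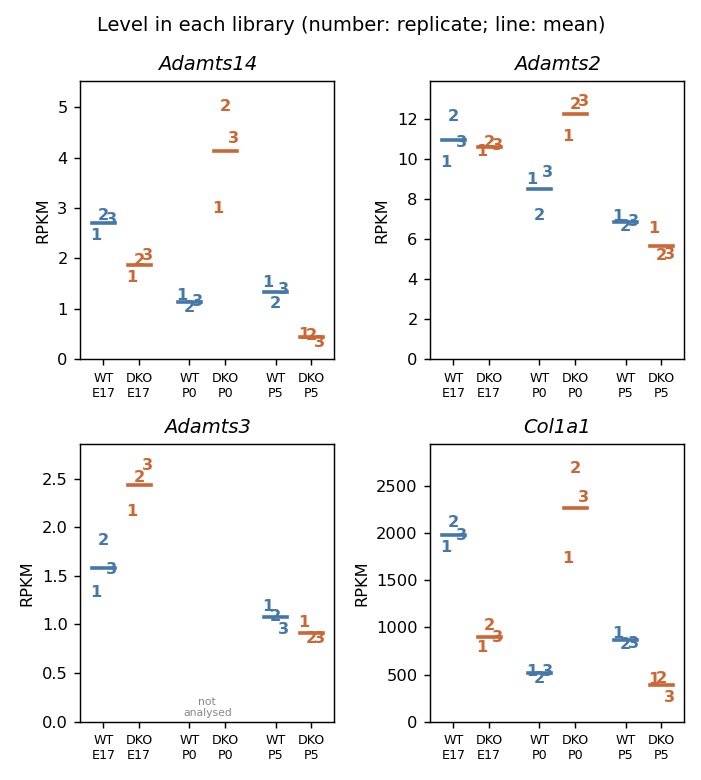
RPKM of the procollagen-processing enzymes Adamts14, Adamts2 and Adamts3 and of the collagen gene Col1a1 in each library; digits are replicate numbers and lines are group means. Adamts14 and Col1a1 are lower in every DKO library than in any WT library at E17 and P5 and higher in every DKO library at P0; Adamts3 was not analysed at P0, and levels are compared only within a stage.

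Of the other Adamts proteases, Adamts17 and Adamts19 were the members that rose at E17 beside Ctsk. Adamts17, a protease linked to fibrillin matrix (chromosome 7, 66839735 to 67153171), rose from 4.65, 4.23 and 5.26 RPKM in WT to 6.75, 7.66 and 7.42 in DKO (0.54 ± 0.08, adjusted p = 0.00195; scaled 0.29, adjusted p = 0.0482). Adamts19 (chromosome 18, 58836667 to 59054060) rose from 0.745, 0.7501 and 0.729 RPKM in WT to 1.23, 1.55 and 1.35 in DKO (0.45 ± 0.09, adjusted p = 0.00399; scaled 0.30, adjusted p = 0.0394). No library overlapped for either gene, but the scaled values were close to the threshold. Adamts17 lost its call without WT replicate 1 or 2 or any DKO replicate (scaled adjusted p 0.0869 to 0.134) and with the replicate number as a block (0.0685). Adamts19 lost it without any of the WT replicates (scaled adjusted p 0.0603 to 0.103) and with the block (0.0792). At P5 Adamts17 stood at 8.79, 6.65 and 7.35 against 5.85, 6.34 and 6.46 RPKM (-0.25, adjusted p = 0.0362; scaled -0.05), and its effect differed from that at E17 (-0.78 ± 0.12, adjusted p = 1.75e-05; scaled -0.34, adjusted p = 0.0213).

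Adamts10, which acts on fibrillin microfibrils (chromosome 17, 33524204 to 33553782), fell at both stages where it was in the table. It stood at 18.3, 20.1 and 19.3 RPKM in WT against 13.0, 16.1 and 14.1 in DKO at E17 (-0.40 ± 0.08, adjusted p = 0.00485; scaled -0.67) and at 9.27, 9.02 and 9.37 against 6.74, 6.07 and 6.48 at P5 (-0.46 ± 0.07, adjusted p = 0.00019; scaled -0.26), without overlap at either. Adamts4, an aggrecan-cutting protease (chromosome 1, 171250421 to 171260637), overlapped at E17 (3.11 to 4.61 against 4.02 to 4.40 RPKM; 0.14, adjusted p = 0.29; scaled -0.09). It fell at P0 from 2.44, 1.82 and 2.34 RPKM in WT to 1.67, 1.07 and 1.12 in DKO (-0.49 ± 0.13, adjusted p = 0.00861; scaled -0.47). By P5 it fell from 1.12, 1.21 and 1.02 RPKM in WT to 0.520, 0.405 and 0.399 in DKO (-0.55 ± 0.09, adjusted p = 0.000293; scaled -0.46). DKO was below WT in every library at P0 and P5, and the effect at P5 differed from that at E17 (-0.69 ± 0.14, adjusted p = 0.000236; scaled -0.37, adjusted p = 0.042).

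Adamts12, which cuts cartilage oligomeric matrix protein (chromosome 15, 11064790 to 11349231), fell at E17 from 3.18, 4.25 and 3.76 RPKM in WT to 2.83, 2.77 and 3.06 in DKO (-0.28 ± 0.09, adjusted p = 0.0304; scaled -0.50). Its call was lost with any library but WT replicate 1 left out (as-deposited adjusted p 0.0536 to 0.0954). Adamts8 (chromosome 9, 30942562 to 30963838, with an exon that overlaps Gm29724 on the other strand) fell from 1.35, 1.29 and 1.02 RPKM in WT to 0.953, 0.559 and 0.846 in DKO (-0.32 ± 0.11, adjusted p = 0.0389; scaled -0.46). It was not called without DKO replicate 2 (-0.22, adjusted p = 0.129) or 3 (-0.34, adjusted p = 0.0737), or with the replicate block (adjusted p = 0.0529). For both genes every DKO library was below every WT library, by narrow margins.

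Among the Adamtsl genes, which encode secreted matrix proteins without a protease domain, a different member was called at each stage. Of this family, 4 genes were tested at E17, only Adamtsl5 at P0 and 3 at P5, where Adamtsl3 was below the filter, so the stages do not compare the same genes. Adamtsl3 (chromosome 7, 82335694 to 82614450) fell at E17 from 1.22, 1.97 and 1.22 RPKM in WT to 0.846, 0.673 and 0.838 in DKO (-0.45 ± 0.13, adjusted p = 0.0149; scaled -0.60, adjusted p = 0.0235), and not without DKO replicate 2 (scaled adjusted p = 0.0684) or 3 (0.0785). Adamtsl5 (chromosome 10, 80339110 to 80348412) rose at P0 from 2.65, 2.44 and 2.79 RPKM in WT to 4.54, 4.27 and 4.40 in DKO (0.58 ± 0.09, adjusted p = 0.000341; scaled 0.59). It overlapped between genotypes at E17 and at P5 (-0.11 and -0.16; scaled -0.33 and 0.01), and its effect at P0 differed from that at E17 (0.69 ± 0.14, adjusted p = 0.000367) and from that at P5 (P5 minus P0 -0.74 ± 0.13, adjusted p = 6.6e-05). Adamtsl1 (chromosome 4, 85514172 to 86428385) rose at P5 from 1.15, 0.988 and 1.20 RPKM in WT to 1.52, 1.37 and 1.53 in DKO (0.23 ± 0.08, adjusted p = 0.0307; scaled 0.35). It lost the call without WT replicate 2 (0.19, adjusted p = 0.119), DKO replicate 1 (0.21, adjusted p = 0.0835) or DKO replicate 3 (0.21, adjusted p = 0.0932).

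Of the membrane-bound Adam proteases, Adam19 changed in opposite directions at P0 and P5. Adam19, a neuregulin-releasing protease (chromosome 11, 46055992 to 46147343), rose at P0 from 2.41, 1.95 and 2.12 RPKM in WT to 4.44, 3.12 and 4.01 in DKO (0.61 ± 0.12, adjusted p = 0.00145; scaled 0.63). By P5 it fell from 3.52, 1.92 and 2.57 RPKM in WT to 1.12, 1.16 and 1.43 in DKO (-0.69 ± 0.14, adjusted p = 0.00141; scaled -0.55). Neither stage showed overlap, and the effects differed (P5 minus P0 -1.31 ± 0.18, adjusted p = 4.68e-06; scaled -1.18). At E17 it stood at 3.14, 3.79 and 3.51 against 2.92, 2.64 and 3.15 RPKM (-0.20, adjusted p = 0.0743; scaled -0.42, adjusted p = 0.0206), and the effect at P0 differed from this one too (0.81 ± 0.15, adjusted p = 0.000109; scaled 1.047). Exons of the predicted genes Gm16033 and Gm16034 overlap it on the other strand.

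Adam23, a member without protease activity that binds integrins (chromosome 1, 63445891 to 63596276), rose at P0 from 1.49, 2.18 and 2.15 RPKM in WT to 3.75, 2.54 and 3.31 in DKO (0.51 ± 0.13, adjusted p = 0.00901; scaled 0.53), without overlap. At E17 it stood lower in every DKO library (1.11 to 1.37 against 1.58 to 1.62 RPKM; -0.21, adjusted p = 0.0568; scaled -0.38, adjusted p = 0.0208), and the effects differed (0.72 ± 0.16, adjusted p = 0.000787; scaled 0.91). Adam33, a mesenchymal member (chromosome 2, 131050591 to 131063814), fell at E17 from 5.04, 3.94 and 4.40 RPKM in WT to 2.35, 2.04 and 2.94 in DKO (-0.67 ± 0.11, adjusted p = 0.00242; scaled -0.89, adjusted p = 0.00306), which was the largest fall of the tested members at that stage in both scalings.

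Adam10 and Adam17, the main sheddases of Notch and of EGF-family ligands and TNF, were expressed at both stages and were not called. Adam10 (chromosome 9, 70678997 to 70780229) stood at 17.99, 19.6 and 19.2 RPKM in WT against 26.0, 24.2 and 25.9 in DKO at E17, with no overlap (0.40 ± 0.07, adjusted p = 0.00208; scaled 0.13, adjusted p = 0.256). Its P5 levels were 36.4, 36.4 and 34.3 RPKM in WT and 34.3, 32.7 and 33.1 in DKO, and its direction depended on the scaling: it was -0.09 (adjusted p = 0.151) as deposited and 0.12 (adjusted p = 0.0439) scaled. Adam17 (chromosome 12, 21323509 to 21373632, with an exon that overlaps Iah1 on the other strand) stood at 10.1, 12.3 and 11.2 against 12.6, 13.4 and 13.4 RPKM at E17 (0.22, adjusted p = 0.0374; scaled -0.05, adjusted p = 0.658). By P5 its levels were 11.6, 10.4 and 10.2 RPKM in WT and 9.99, 10.3 and 10.2 in DKO, and here too the sign turned, from -0.07 (adjusted p = 0.385) to 0.14 (adjusted p = 0.0484).

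The median log2 fold change of the 11 tested cathepsins, Ctsk included, was 0.24 at E17 (scaled -0.03) and -0.22 at P5 (scaled -0.04), beside 0.25 (-0.00) and -0.25 (-0.06) over all genes. Ctsl, cathepsin L (chromosome 13, 64359337 to 64370890), was the one cathepsin called at P5. It stood at 54.5, 53.8 and 52.0 RPKM in WT and at 62.5, 60.4 and 66.3 in DKO. All DKO libraries were above all WT libraries, and Ctsl rose while most genes shifted down (0.24 ± 0.06, adjusted p = 0.00382; scaled 0.46, adjusted p = 9.52e-05). At E17 it stood at 56.2, 53.9 and 51.4 against 59.3, 66.0 and 66.2 RPKM (0.24, adjusted p = 0.0185; scaled -0.04, adjusted p = 0.505), a difference of the size of the shift. Exons of Gm49230 on the same strand and Gm47123 on the other overlap Ctsl.

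Ctsb, cathepsin B (chromosome 14, 63122462 to 63145923, with an exon that overlaps Fdft1), stood at 101.0, 96.7 and 93.1 against 97.5, 97.6 and 97.4 RPKM at P5 (0.01, adjusted p = 0.881), which became 0.23 (adjusted p = 0.00116) after scaling. At E17 it stood at 123.3, 121.4 and 109.8 against 128.5, 155 and 154.9 RPKM (0.30, adjusted p = 0.0215; scaled 0.01). Ctsd, the main aspartic protease of lysosomes (chromosome 7, 142375911 to 142388038), stood at 174.7, 149.8 and 146.3 against 174.2, 187.7 and 201.2 RPKM at E17, with overlap at the edge (0.26, adjusted p = 0.0369; scaled -0.03). The P5 libraries held 178.5, 149.1 and 162.4 RPKM in WT and 137.5, 145.2 and 146.8 in DKO, apart, with a change that scaling removed (-0.19, adjusted p = 0.0327; scaled 0.04, adjusted p = 0.597). Ctsf, cathepsin F, chosen after its values were seen, stood at 25.5 to 26.4 against 27.7 to 29.1 RPKM at P5 (0.12, adjusted p = 0.0757; scaled 0.34, adjusted p = 0.000397).

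**Figure D5:**
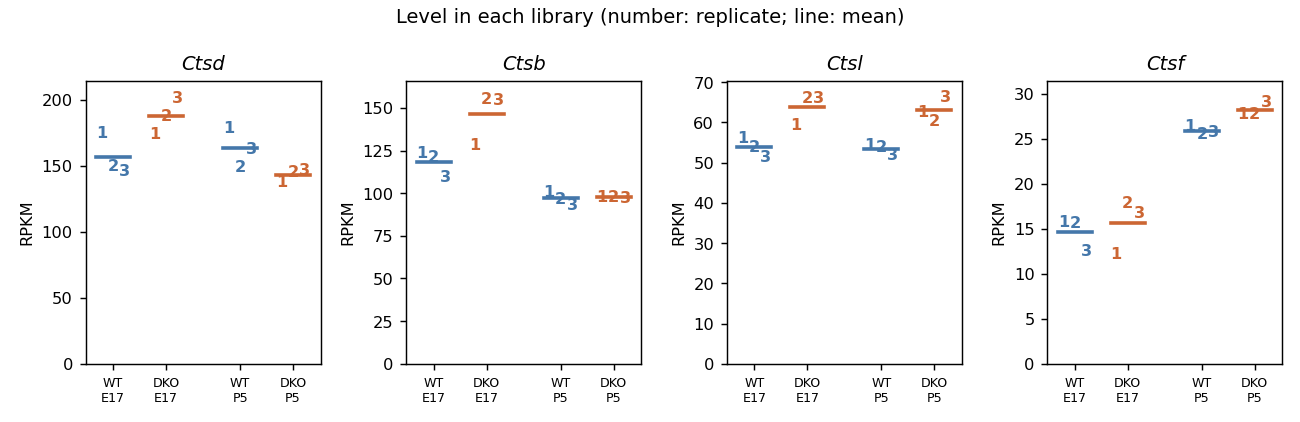
RPKM of the lysosomal cathepsins Ctsd, Ctsb, Ctsl and Ctsf in each library at E17 and P5; digits are replicate numbers and lines are group means. At P5 Ctsl and Ctsf are higher and Ctsd is lower in every DKO library than in any WT library, while Ctsb overlaps; levels are compared only within a stage.

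Several markers of other cell types moved with the members that fell. At E17, 4 of 6 tested odontoblast and osteoblast markers fell (sums of 384 to 462 RPKM in WT and 149 to 263 in DKO), as did 2 of 3 tested cartilage markers (95.8 to 102.3 against 27.8 to 44.2) and 4 of 7 skeletal muscle markers (419 to 960 against 376.5 to 472). Col2a1 and Col11a2, the cartilage markers that fell, made up most of that sum, and Col9a2 was not called. The cartilage markers below the filter went both ways. Mean levels in WT and DKO were 1.01 and 0.658 RPKM for Acan, 0.338 and 0.607 for Col9a1, 0.0306 and 0.0907 for Matn1, and 0.514 and 0.596 for Cnmd. At P5, all 7 tested odontoblast and osteoblast markers fell (659 to 892 against 292 to 335), as did 3 of 3 cartilage markers, 3 of 8 macrophage markers (Csf1r, Cd68 and Tyrobp; list sums of 56.7 to 72.8 against 36.6 to 44.9) and 2 of 7 endothelial markers. None of these rose at E17, and none of those tested at P5 rose. No skeletal muscle marker reached the filter at P5, so a rise of that list could not be called. The list summed to 17.4 RPKM in DKO replicate 3 and to at most 1.66 in every other P5 library. DKO replicate 3 was also the highest DKO library for Ctsk, Mmp9, Mmp13 and Acp5 at P5. Whether other tissue in that library had a part in those values was not tested. Over all genes tested, 3.07% fell at E17 and 30.8% at P5, so the P5 counts of macrophage and endothelial markers were near the background. The part of these cells in the lower values of Mmp2, Mmp13, Mmp23, Timp1, Timp3, Adam19, Adam33 and the Adamts genes was not tested.

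Across stages, the genotype effect differed in both scalings for 7 of the 10 members tested at E17 and P0 (31.6% of all genes tested at both), for 6 of 36 between E17 and P5 (30.1%) and for 4 of 7 between P0 and P5 (41.1%). Between E17 and P0, Adam19, Adam23, Adamts2, Adamts14 and Adamtsl5 moved up and Mmp11 and Mmp28 moved down. Between E17 and P5 all 6, Ctsk, Mmp2, Mmp13, Timp1, Adamts4 and Adamts17, moved down, and between P0 and P5 Adam19, Adamts2, Adamts14 and Adamtsl5 moved down. Since comparisons of a stage share its libraries, these counts are not independent of each other.

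The other genes of extracellular and lysosomal proteolysis were read from a list of 63. At E17, 8 of 55 tested rose and 6 fell (backgrounds 6.61% and 3.07%), with a median log2 fold change of 0.24 (scaled -0.00). Slpi, an inhibitor of leukocyte serine proteases, rose from 1.07, 0.620 and 0.672 RPKM in WT to 23.6, 6.84 and 22.6 in DKO (3.22 ± 0.37, adjusted p = 0.000761). Serpinb2, an inhibitor of plasminogen activators, rose from 1.03, 0.502 and 0.780 RPKM in WT to 5.53, 2.80 and 4.85 in DKO (1.58 ± 0.19, adjusted p = 0.000941). In both, DKO replicate 2 was the lowest DKO library, and it was also the lowest for the list of cornifying epithelium, which summed to 142 to 218 RPKM in WT and 484, 229 and 443 in DKO and of which 5 of 6 tested genes rose. The serine protease Htra4 (1.10), the membrane protease St14, matriptase (0.54), and its inhibitor Spint2 (0.57) also rose. Htra4 stood at 0.585, 0.535 and 0.425 RPKM in WT and at 1.83, 3.05 and 1.99 in DKO. It reached the filter only through DKO and could be tested only because it differed. For Slpi and Serpinb2 only replicate 1 of WT reached 1 RPKM, so they too passed the filter through DKO. Those that fell at E17 included Phex, a peptidase of mineralising cells (-0.76), Pappa2, which cuts IGF-binding proteins (-0.53), the serine protease Htra1 (-0.41), Pcolce, the enhancer of procollagen C-proteinase (-0.34), and Bmp1, that proteinase itself (-0.29).

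At P0, 2 of 8 tested genes of the list rose and 3 fell (backgrounds 16.7% and 22.8%). Serpinf1, a collagen-binding serpin, rose from 102.2, 109.3 and 110.4 RPKM in WT to 284.8, 351.2 and 344.1 in DKO (1.59 ± 0.08, adjusted p = 1.24e-07), and Bsg, basigin, an inducer of matrix metalloproteases, rose (0.58). Serpine2, a serpin that inhibits thrombin and plasminogen activators (-1.07), Spock2, a testican proteoglycan (-0.77), and Psap, a lysosomal activator protein (-0.18), fell. At P5, 4 of 47 rose and 14 fell, with a median of -0.20 (scaled 0.01), and both counts were near the backgrounds of 7.35% and 30.8%. Pcolce fell from 77.0, 81.1 and 69.9 RPKM in WT to 31.5, 28.7 and 23.3 in DKO (-1.42 ± 0.10, adjusted p = 4.37e-06; scaled -1.20). Serpinf1, which had risen at P0, fell from 160.6, 156.5 and 146.7 RPKM in WT to 79.6, 80.9 and 67.7 in DKO (-1.02 ± 0.07, adjusted p = 5.14e-06; scaled -0.79). The serine protease Prss23 (-1.30), Phex (-1.26) and the hyaluronidase Hyal2 (-0.65) fell as well. The genes of the list that rose at P5 were the cystatin Cst6 (0.65), the heparanase Hpse (0.59), Rhbdf2, which guides ADAM17 to the cell surface (0.38), and Papss2, which makes the sulfate donor for proteoglycans (0.26).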

How the data were processed

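RNA was measured in 18 libraries of 6 groups. Per the submitters' processing notes the authors used Partek (no version given) on mouse build mm10; for the aligner, the annotation and any use of strand the entry is "not given in the sources used here". The deposited values were read as RPKM per transcript: no source names the unit, and at E17 and P0 83.9% to 86.9% of low values of single-transcript genes were whole multiples of 1 read, within 0.1. Library depth is the deposited count of alignments, per the file headers. The P5 table names transcripts by RefSeq accession and the other tables by Ensembl-type names, so stages were fitted one by one. One read on a 1 kb transcript was worth 0.0215 to 0.0359 RPKM at E17 and P0.

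RPKM were summed per symbol, filtered (at least 1 RPKM in 3 of 6 libraries) and log2(RPKM + 1) was fitted with limma 3.58.1 (eBayes with trend, two-sided) in R 4.3.3, as deposited and after upper-quartile scaling. Differences between stages used limma's standard errors and Satterthwaite's degrees of freedom and were adjusted over all genes tested at both stages. The scripts were tested on simulated data. A true log2 change of 0.5 was called in 64% of such genes at E17, 91% at P0 and 68% at P5. False calls made up 6.55%, 3.57% and 2.92% of all calls at these stages. For differences between stages they made up 5.77% (E17 and P0), 7.95% (E17 and P5) and 5.71% (P0 and P5). Positions and overlaps are from GENCODE M21, upstream windows from RefSeq. Named genes were Ctsk, Timp1 and a set of 12 more at every stage, up to 10 largest rises and falls per stage among called members, members called in opposite directions, and up to 5 other proteolysis genes per stage and direction; others are marked as chosen later. The members, lists, call rule and alternatives were chosen with earlier results of these data known. Alternatives were each scaling alone, median-of-ratios scaling, no filter, a pseudocount of 0.1, no trend, a minimum log2 change of 1 in size, the replicate number as a block and each library left out. The P0 table holds part of the genome, and the members outside it were not analysed here at that stage. A marker of the epithelial list, with the sums that hold it, and a gene that overlaps a member are not reported here.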

Additional observations from a re-analysis of the deposited data

Results flagged for a closer look

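Groups of 3 libraries were not tested for outlying samples. The results below were picked out because the genotype effect (log2 fold change of DKO against WT, as deposited) differed between stages past an adjusted p of 0.05 in both scalings, from the differences of the limma fits. From E17 to P0 the effect moved up by 1.61 for Adamts14, 0.81 for Adam19, 0.72 for Adam23, 0.69 for Adamtsl5 and 0.52 for Adamts2, and it moved by -0.76 for Mmp11 and -0.48 for Mmp28. From E17 to P5 it moved by -1.81 for Ctsk, -1.44 for Mmp13, -0.87 for Mmp2, -0.87 for Timp1, -0.78 for Adamts17 and -0.69 for Adamts4. From P0 to P5 it moved by -1.95 for Adamts14, -1.31 for Adam19, -0.74 for Adamtsl5 and -0.73 for Adamts2. The tables differ in annotation between P5 and the other stages, and the part of this in the differences with P5 was not tested.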

How the results depend on the processing

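Of 31 calls of single members, 19 held with every library left out in turn and 10 were lost without at least 1 library. The other 2, Adamts4 and Adamts14 at P5, held without each DKO library but were below the filter, and so not tested, without any of the WT libraries. Of the 10, Adamts8 and Adamtsl3 at E17 were likewise not tested without a WT library, and Adamts19 at E17 without a DKO library. With each library left out, 0 to 2 members rose and 3 to 6 fell at E17, 5 rose and 3 to 5 fell at P0, and 1 to 3 rose and 7 to 12 fell at P5. The counts of effects that differed were then 6 to 8 (E17 and P0), 2 to 7 (E17 and P5) and 3 to 4 (P0 and P5). As-deposited values alone gave 17 members higher at E17, 25 lower at P5 and 29 of 36 effects that differed between E17 and P5 (80.7% of all genes). Upper-quartile scaled values alone gave 15 lower at E17, 6 higher at P5 and 11 such effects (44.2%), and median-of-ratios scaling gave 15 (8.0%), 7 (25.0%) and 12 (42.9%). With no filter, where more genes were tested, 0 rose and 4 fell at E17, 2 fell at P0 and 4 rose at P5. With a minimum log2 change of 1 in size, 1 member rose at P0 and 0 rose or fell at E17 and P5 or fell at P0, and 1, 1 and 2 effects differed between E17 and P0, E17 and P5, and P0 and P5, since few members changed that much. The pseudocount of 0.1 changed no call of a single member. At P5, Adam10 turned to 0.12 with upper-quartile and 0.19 with median-of-ratios scaling, and Adam17 to 0.14 and 0.20; the cause was not tested. The labels do not say whether equal replicate numbers mark paired libraries. Deviations of same-numbered libraries correlated at -0.022, 0.2198 and -0.021 at E17, -0.166, 0.270 and -0.081 at P0 and -0.222, -0.072 and 0.044 at P5. With 3 libraries per group, these values cannot decide whether libraries were paired. The fit with the replicate block gave 2 higher and 6 lower members at E17, 5 and 4 at P0, and 2 and 12 at P5, and 7, 6 and 4 effects that differed. No alternative with fewer reads was run. Genes that did not reach 1 RPKM in 3 libraries were not tested, and 3 libraries per group limit the precision of all values.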
